A study of Mus musculus with 10 samples.

Results

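The vomeronasal receptors are the pheromone receptors of the vomeronasal organ (VNO), a sensory organ at the base of the nasal septum that is separate from the main olfactory epithelium (MOE). They were read here in MOE, as the 175 probe sets with a single gene symbol that starts with Vmn1r (V1R, 119 probe sets of 118 genes) or Vmn2r (V2R, 56 probe sets of 49 genes), out of 21789 probe sets with a single symbol and 35556 probe sets in all. Another 66 probe sets carry several symbols that include a vomeronasal receptor, up to 19 in 1 probe set, and are not counted. All 175 matched the RefSeq gene table, which lists 373 Vmn1r and 272 Vmn2r genes, pseudogenes included, and 4 of the 175 are annotated as pseudogenes.

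The data are log2 signals from whole MOE of mice aged 5 weeks, read on Affymetrix Gene 1.0 ST arrays of the mouse, 4 labelled H2be-GF and 6 labelled WT. H2be-GF mice come from 1 transgenic founder line and carry, beside their own histone genes, copies of a FLAG-tagged H2BE, a variant of histone H2B. The promoter of olfactory marker protein (Omp) drives it in mature olfactory neurons, except in a band near zone 2, which makes the tissue a mosaic. WT mice lack the transgene. Tissue of several animals was combined for an array, with more animals behind an H2be-GF array. Both sexes entered in equal number over the series, and the sex behind an array is not given. The comparison asked which genes respond when H2BE is forced on in olfactory neurons, and the receptors below belong to a neighbouring sensory system. The spread behind each p-value is that between such pools.

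Each vomeronasal neuron chooses a receptor gene from these families. V1Rs are expressed by neurons of the apical layer of the VNO together with the G protein subunit Gnai2, and V2Rs, which have a long extracellular domain, by neurons of the basal layer together with Gnao1. Both signal through the cation channel Trpc2, and V2Rs of family C (Vmn2r1 to Vmn2r7) accompany other V2Rs in the same cell. Mature neurons of the MOE instead choose an olfactory receptor (OR) or a trace amine-associated receptor (TAAR) and signal through Gnal and Cnga2.

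Array-wide signals were even, with medians of 7.79 to 7.90 on H2be-GF arrays and 7.74 to 7.91 on WT arrays. H2bc21, the gene of H2BE, read 11.85, 11.92, 11.85 and 11.76 on H2be-GF arrays, against 12.02, 12.09, 12.00, 12.13, 12.08 and 12.10 on WT arrays. All H2be-GF arrays lay below all WT arrays, and the change of -0.23 ± 0.06 (SE) had an adjusted p of 0.297 in limma. The paper reports, from quantitative PCR, much higher expression of the transgene than of the endogenous gene in this line. Where the probes of H2bc21 lie relative to the transgene is not known here, so the probe set does not check the labels, and genotypes are named as labelled. The tissue carried strong MOE markers. Cnga2, the olfactory transduction channel, averaged 12.38 on H2be-GF arrays and 12.49 on WT arrays.

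The signal of both receptor families was low in MOE. Mean log2 signals over the 6 WT arrays had a median of 5.97 over V1R probe sets, with a range of 0.29 to 7.75, and a median of 6.04 over V2R probe sets, with a range of 4.49 to 7.99. The ORs, which MOE neurons do express, had a median of 7.57 over 1035 probe sets, and the 13 TAAR probe sets one of 7.64. Above a signal of 7 lay 13 of 119 V1R and 4 of 56 V2R probe sets, against 742 of 1035 OR probe sets and 78.1% of all 23410 probe sets with a symbol. Above 5, the lower limit of the test used here, lay 100 of 119 V1R and 49 of 56 V2R probe sets.

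A signal above 5 did not by itself separate the receptors from genes that MOE does not use. Of 24 genes of photoreceptors, sperm, pituitary, pancreas, lens and liver, 22 were measured, and their WT means ran from 5.09 to 8.88. The lowest mean was that of Prl, which read 7.53 on WT array 2 and 4.36 to 4.83 on the other WT arrays. The median over the 22 genes was 6.82. Only 16 V1R and 7 V2R probe sets lay above that median, and none above the highest of these genes, Ins2. Bitter taste receptors (Tas2r), another family of chemoreceptors, had a median of 6.17 over 35 probe sets. Probe sets differ in how strongly they respond, so these signals describe families and do not rank genes, and fewer expressing cells cannot be told apart from less RNA per cell in whole tissue. The plot of WT signals by family shows the overlap of both vomeronasal families with the taste receptors and the genes of absent tissues.

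**Figure D1:**
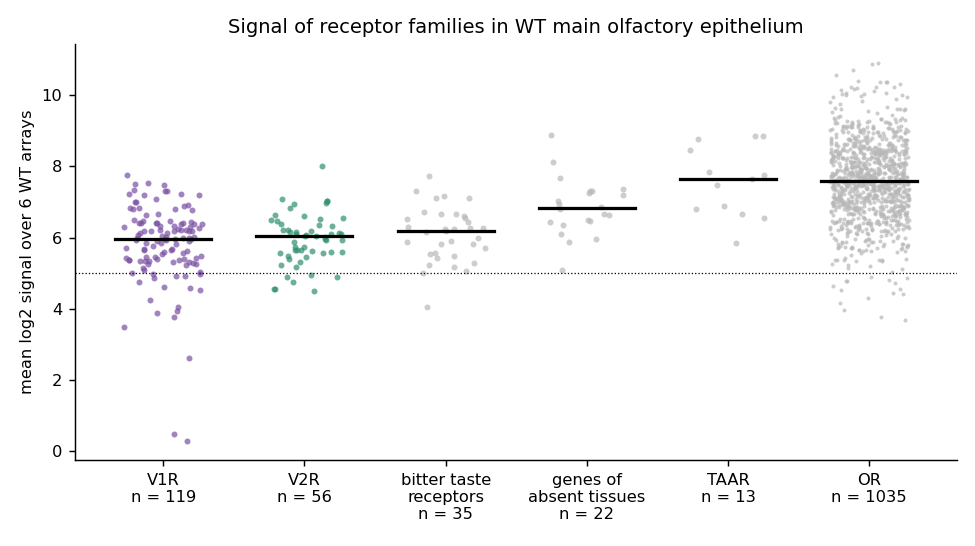
Each point is the WT mean (log2, 6 arrays) of a probe set of the V1R, V2R, bitter taste receptor, absent-tissue, TAAR and OR groups, with group medians as bars and a dotted line at 5. The V1R and V2R medians, 5.97 and 6.04, lie below the median of 6.82 for genes of absent tissues and that of 7.57 for ORs.

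Genes that accompany these receptors in the VNO spanned a wide range of signal. Gnai2 averaged 10.69 ± 0.02 on H2be-GF arrays and 10.74 ± 0.09 on WT arrays, and Gnao1 averaged 11.13 ± 0.10 on H2be-GF arrays and 11.11 ± 0.10 on WT arrays (SD over arrays). Both G proteins are used by many other neurons. Tfap2e, a transcription factor of basal VNO neurons, was the lowest measured, with means of 7.39 ± 0.15 on H2be-GF arrays and 7.39 ± 0.30 on WT arrays. The list of VNO neuron genes held 10 genes, of which 9 were measured as single-symbol probe sets and Trpc2 was not. WT means of the measured genes had a median of 9.96 and ran from 7.39 to 11.11. None of the 9 passed the test, nor did any reach an unadjusted p under 0.05 in limma.

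Nonclassical MHC genes of the H2-Mv cluster, which are expressed with V2Rs in basal VNO neurons, were dim but brighter than the receptors as a group. Their WT means had a median of 6.44 over 9 genes, 3 of them above 7, with a range of 4.91 for H2-M10.5 to 7.27 for H2-M10.1. H2-M10.3, with the lowest p of the 9, read 7.34, 7.42, 7.53 and 7.28 on H2be-GF arrays, against 7.11, 7.30, 7.12, 7.31, 7.18 and 7.37 on WT arrays, and the genotypes overlapped. None of the 9 was called. The formyl peptide receptors of the VNO had a WT median of 5.92 over 4 measured genes, and none of the 3 that entered the test was called. Lipocalins of the nasal glands, secreted proteins that carry odorants and pheromones, were at the other end of the scale, with a WT median of 12.73 over 5 genes and no call.

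No vomeronasal receptor changed detectably between the genotypes. In limma, with adjustment over all 23194 probe sets with a mean above 5, 0 of 102 V1R and 0 of 49 V2R probe sets were called in either direction, where 20 probe sets, 0.0862%, were called in all. The other 24 members, 17 V1R and 7 V2R, had a mean of 5 or less and did not enter the test. The lowest adjusted p of a receptor was 0.381, for Vmn1r66.

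Few receptors had a low unadjusted p. At an unadjusted p under 0.05, 1 V1R and 2 V2R probe sets were higher in H2be-GF, where 4.35% of all probe sets were, and 1 V1R and 1 V2R probe set were lower, where 4.07% of all were. In both directions together this came to 5 of 151 receptors, 3.31%, against 203 of 1019 OR probe sets, 19.9%, and 8.43% of all probe sets tested. The equally dim bitter taste receptors had 7 of 34 tested, 20.6%, and other probe sets with a WT mean of 5 to 7 had 8.09%. Only Vmn2r70 separated the genotypes without overlap, 0.662% of the 151 receptors tested. Of all probe sets tested 2.89% did, and of the other probe sets with a WT mean of 5 to 7, 1.2%. These counts are descriptions, since probe sets of 1 tissue pool are not independent.

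The changes had medians close to 0 and were as wide as those of other dim probe sets. The median change, H2be-GF minus WT on the log2 scale, was 0.054 over V1R probe sets and 0.063 over V2R probe sets, against 0.008 over all probe sets tested and 0.039 over the 4771 other probe sets with a WT mean of 5 to 7. Without H2be-GF array 1 both medians changed sign, to -0.029 in V1Rs and -0.043 in V2Rs. Changes ran from -0.38 to 0.72 in V1Rs and from -0.36 to 0.38 in V2Rs, and 146 of 175 stayed within 0.25 of 0, against 4017 of 4771 other probe sets with a WT mean of 5 to 7 and 21975 of all 23410 with a symbol. The median size of the change was 0.119 in V1Rs and 0.110 in V2Rs, against 0.117 over those other dim probe sets and 0.079 over all probe sets tested. Changes above 0 were found in 78 of 119 V1R and 36 of 56 V2R probe sets. In the other probe sets of the same signal range, 58.5% had a change above 0.

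The balance of signs moved with the signal. Below a WT mean of 5, 17 of 19 V1R and 7 of 7 V2R probe sets had a change above 0, with medians of 0.178 and 0.137. Between 6 and 7, 26 of 42 V1R and 14 of 25 V2R probe sets did, with medians of 0.036 and 0.019. Above 7, 5 of 13 V1R and 0 of 4 V2R probe sets did, with medians of -0.011 and -0.072. The 203 other probe sets with a WT mean under 5 ran the same way, with 143 changes above 0 and a median of 0.134. The WT mean enters both the grouping and the change, so the steps are given without a test, and the plot of change against signal shows them beside the ORs.

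**Figure D2:**
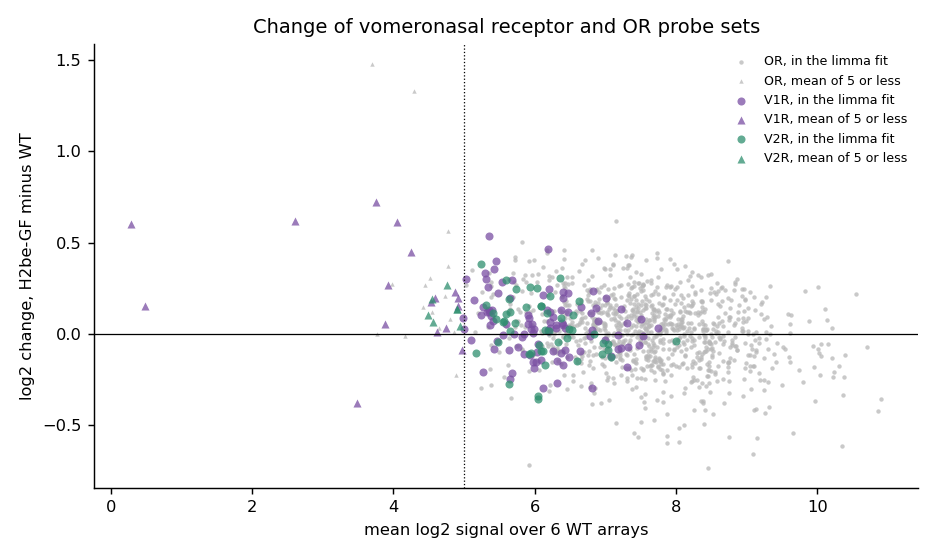
Log2 change, H2be-GF minus WT, against the mean log2 signal over 6 WT arrays for V1R, V2R and OR probe sets; circles entered the limma fit and triangles had a mean of 5 or less over all arrays. Changes of V1Rs and V2Rs stay between -0.38 and 0.72, and those above 0.6 belong to probe sets with a mean of 5 or less.

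On a given array the receptors tended to be high or low together. The V1R median was 6.15, 5.90, 6.02 and 5.80 on H2be-GF arrays 1 to 4, against 6.00, 6.23, 5.79, 6.11, 5.74 and 5.83 on WT arrays 1 to 6. The V2R median was 6.30, 5.81, 6.00 and 5.81 on H2be-GF arrays, against 6.03, 6.12, 5.97, 6.05, 5.87 and 5.70 on WT arrays. The genotypes overlapped in both families. V1R medians had means of 5.97 ± 0.15 on H2be-GF arrays and 5.95 ± 0.20 on WT arrays, and V2R medians means of 5.98 ± 0.23 on H2be-GF arrays and 5.96 ± 0.15 on WT arrays.

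The same arrays were high in dim probe sets of other genes. H2be-GF array 1 held the highest signal of 57 of the 175 receptors and WT array 2 that of 45, whereas WT array 6 held the lowest signal of 58. The median over the 4771 other probe sets with a WT mean of 5 to 7 was also highest on WT array 2, at 6.60, and H2be-GF array 1, at 6.57, and lowest on WT array 6, at 6.31. Set against that median, V1Rs stood at -0.50 ± 0.07 on H2be-GF arrays and -0.49 ± 0.11 on WT arrays, and V2Rs at -0.49 ± 0.14 on H2be-GF arrays and -0.48 ± 0.08 on WT arrays. WT array 2 also stood apart in the pituitary hormones Gh and Prl, which read 7.90 and 7.53 there, against 5.29 to 6.15 and 4.36 to 4.83 on the other WT arrays. Without WT array 2, 0 receptors were called, and the median change was 0.103 in V1Rs and 0.081 in V2Rs.

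**Figure D3:**
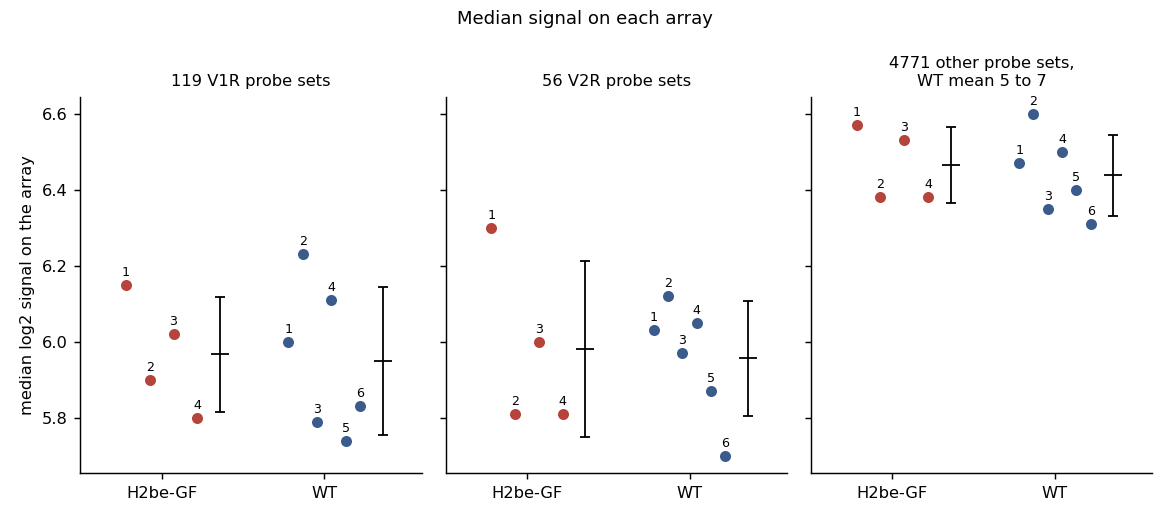
Median log2 signal of the 119 V1R probe sets, the 56 V2R probe sets and 4771 other dim probe sets on each H2be-GF and WT array (points, numbered by replicate), with genotype means and SDs at the side. H2be-GF array 1 and WT array 2 are high in all 3 panels and the genotype means differ by less than 1 SD.

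Variation between WT arrays was wide for these receptors. The median SD over the 6 WT arrays was 0.30 for V1R and 0.26 for V2R probe sets, against 0.14 over all probe sets tested and 0.25 over the other probe sets with a WT mean of 5 to 7. An SD above 0.5 was found in 15 V1R and 6 V2R probe sets. After the genotype means were taken out, pairs of receptors had a median Pearson correlation of 0.31 over the 10 arrays. Pairs of V1Rs from the same subfamily had a median of 0.26 over 800 pairs, and pairs from different subfamilies one of 0.31 over 5416 pairs, so the median was no higher within a subfamily. Receptors on the same arrays share the array effect above, and these values are a description.

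The V1R probe sets with the highest WT signal were flat between genotypes. They were Vmn1r234, Vmn1r218, Vmn1r194, Vmn1r1, Vmn1r86 and Vmn1r224. Vmn1r234, a receptor of the V1rf subfamily, read 8.14, 7.48, 7.88 and 7.62 on H2be-GF arrays, against 7.90, 7.97, 7.48, 7.98, 7.68 and 7.49 on WT arrays. The change was 0.03 ± 0.15 (SE; adjusted p = 0.970 in limma), with full overlap. Among the 6, changes ran from -0.18 for Vmn1r224 to 0.08 for Vmn1r194, with adjusted p of 0.775 or more.

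The brightest V2R probe set belonged to a pseudogene. Vmn2r-ps104 read 8.56, 7.58, 8.08 and 7.61 on H2be-GF arrays, against 8.28, 8.50, 7.69, 8.12, 7.82 and 7.55 on WT arrays. The change was -0.04 ± 0.22 (SE; adjusted p = 0.978 in limma). Vmn2r16, Vmn2r110, Vmn2r9, Vmn2r14 and Vmn2r96 followed, with WT means of 7.08 to 6.95 and changes of -0.12 to -0.05. None of these 6 separated the genotypes.

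Some of these bright members were most like a receptor of another family or subfamily across the 10 arrays. Vmn1r234 was followed most closely by Vmn1r43 of subfamily V1ra (Pearson r = 0.99 over 10 arrays), Vmn2r-ps104 by Vmn1r64 of V1rd (r = 0.97) and Vmn2r14 by Vmn1r231 of V1re (r = 0.96), whereas Vmn2r16 was followed most closely by Vmn2r14 (r = 0.83). The correlations were picked as the highest for each receptor, without a test. Each of these receptors had its highest H2be-GF value on array 1 and its highest or second highest WT value on array 2.

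A second set was chosen after their values were seen, as the receptors with an unadjusted p under 0.05 in limma. Vmn1r66, of subfamily V1re, read 5.79, 5.92, 5.84 and 5.75 on H2be-GF arrays, against 5.85, 6.23, 6.20, 6.32, 6.03 and 6.11 on WT arrays. Only WT array 1 fell within the range of the H2be-GF arrays, and the change of -0.30 ± 0.09 (SE) had an adjusted p of 0.381 in limma. Vmn1r85, of subfamily V1rj, read 6.03, 5.70, 5.94 and 5.91 on H2be-GF arrays, against 5.75, 5.44, 4.95, 5.66, 4.84 and 5.51 on WT arrays. The change of 0.54 ± 0.17 (SE; adjusted p = 0.411 in limma) came with a wider spread on WT arrays (SD 0.38) than on H2be-GF arrays (SD 0.14).

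Vmn1r85 and Vmn1r89 make up the V1rj subfamily here and are known as receptors for sulfated steroids. Vmn1r89 read 6.81, 5.98, 6.40 and 6.19 on H2be-GF arrays, against 6.73, 6.70, 6.03, 6.24, 6.23 and 5.91 on WT arrays. Its change was 0.04 ± 0.19 (SE; adjusted p = 0.975 in limma), and neither receptor of the subfamily was called. The difference between both changes was not tested.

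Among V2Rs, Vmn2r118 and Vmn2r70 had higher and Vmn2r76 lower means on H2be-GF arrays. Vmn2r118 read 6.92, 6.56, 6.74 and 6.45 on H2be-GF arrays, against 6.33, 6.63, 6.51, 6.28, 6.22 and 6.20 on WT arrays (change 0.31 ± 0.11 SE, adjusted p = 0.465 in limma). Vmn2r70 read 6.32, 6.23, 6.23 and 6.35 on H2be-GF arrays, against 5.67, 6.12, 6.05, 6.11, 6.14 and 6.07 on WT arrays (change 0.25 ± 0.09 SE, adjusted p = 0.465 in limma). All H2be-GF arrays lay above all WT arrays, and WT array 1 stood well below the other WT arrays. Vmn2r76 read 5.95, 5.64, 5.57 and 5.63 on H2be-GF arrays, against 5.88, 6.37, 6.10, 5.93, 6.32 and 5.70 on WT arrays (change -0.36 ± 0.13 SE, adjusted p = 0.490 in limma). None of the 3 passed the test.

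**Figure D4:**
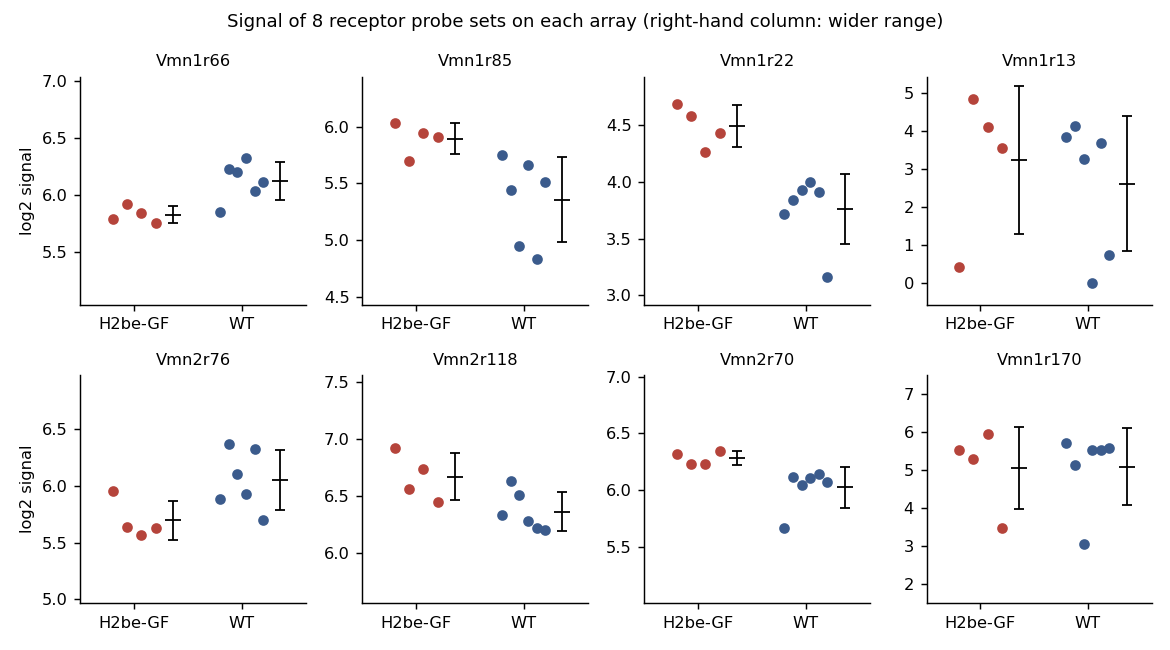
Log2 signal of 8 receptor probe sets on each H2be-GF and WT array (points), with genotype means and SDs at the side; the vertical range is 2 units except in the right-hand column, where it is 6. Vmn2r70 and Vmn1r22 separate the genotypes, and Vmn1r13 and Vmn1r170 have arrays of both genotypes far below the rest.

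V1R genes form subfamilies that lie in clusters, and the subfamily of a probe set was taken from the older names in the RefSeq table. V1rc was the largest with 27 probe sets, all on chromosome 6, followed by V1rh with 19 on chromosome 13 and V1re with 13 on chromosomes 7 and 17. Subfamily medians of the WT mean ran from 5.38 in V1ra to 6.32 in V1rf among subfamilies with 5 or more probe sets. Median changes in the same subfamilies ran from 0.01 in V1rb to 0.13 in V1rd. In V1rd, 10 of 11 probe sets had a change above 0, but all 11 lay within 0.25 of 0 and none of the 9 tested had an unadjusted p under 0.05.

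The 6 V1R probe sets with no older subfamily name had a median WT mean of 7.32, and 4 of the 6 brightest V1R probe sets were among them, namely Vmn1r194, Vmn1r1, Vmn1r86 and Vmn1r224. By chromosome, the largest groups were 41 V1R probe sets on chromosome 6, 34 on chromosome 7 and 29 on chromosome 13, with median changes of 0.048, 0.060 and 0.083. V2R probe sets were spread over 9 chromosomes, most of them on chromosomes 7 and 17 with 17 each. Their median changes were 0.103 on chromosome 7 and 0.088 on chromosome 17, and -0.052 over the 8 on chromosome 5. No cluster held a called receptor.

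Of family C only Vmn2r1 was among the probe sets, and the other members of the family were not analysed here. Vmn2r1 read 6.58, 6.45, 6.61 and 6.41 on H2be-GF arrays, against 6.66, 6.39, 6.46, 6.60, 6.34 and 6.46 on WT arrays. The change was 0.03 ± 0.08 (SE; adjusted p = 0.949 in limma), with a narrow spread in both genotypes.

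**Figure D5:**
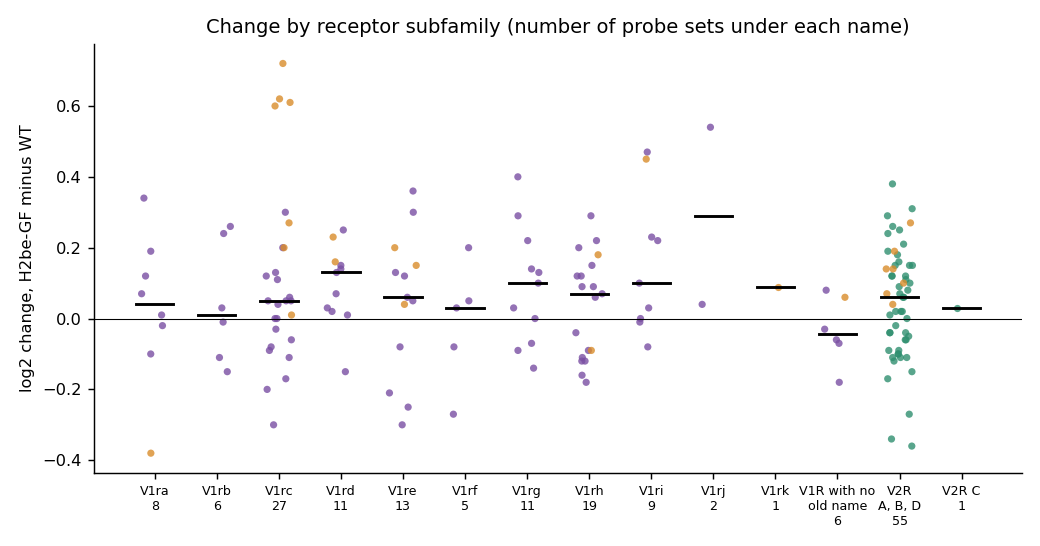
Log2 change, H2be-GF minus WT, of each probe set (points) by V1R subfamily and V2R family, with the median as a bar; orange points have a WT mean under 5, and 1 V1R with several older names is left out. The 4 V1R changes of 0.60 or more all belong to V1rc probe sets with a WT mean under 5.

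The 4 highest changes of all receptors belonged to V1rc genes of the chromosome 6 cluster with very low signal, which were chosen after their values were seen. Vmn1r22 read 4.68, 4.58, 4.26 and 4.43 on H2be-GF arrays, against 3.72, 3.84, 3.93, 4.00, 3.91 and 3.16 on WT arrays. The genotypes did not overlap, and in a fit of all 23410 probe sets without the signal limit the change of 0.72 ± 0.15 (SE) had an adjusted p of 0.185 in limma. With 16 added on the linear scale before taking logs, which damps changes of dim probe sets, it was 0.37.

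Vmn1r14, Vmn1r13 and Vmn1r23 had changes of 0.61, 0.62 and 0.60 with wide overlap. Vmn1r14 read 5.07, 4.00, 4.99 and 4.60 on H2be-GF arrays, against 4.15, 3.92, 4.70, 4.63, 3.91 and 3.02 on WT arrays. Vmn1r13 read 0.41, 4.84, 4.10 and 3.56 on H2be-GF arrays, against 3.83, 4.14, 3.27, 0.00, 3.68 and 0.73 on WT arrays, so that it was near or at the lower limit of 0 on 1 H2be-GF and 2 WT arrays. Vmn1r23 was at 0 on H2be-GF arrays 2 and 4 and on 5 of the 6 WT arrays, and read 2.23 and 1.37 on the other H2be-GF arrays and 1.76 on WT array 1. At this signal the log2 scale stretches small differences. Without the signal limit, the adjusted p was 0.640 for Vmn1r14, 0.910 for Vmn1r13 and 0.769 for Vmn1r23 in limma.

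The sequences around the gene starts of 3 of these V1rc genes, and of Vmn1r234 for contrast, show how alike the V1rc genes are there. They run from 250 bases before to 50 after the gene start in RefSeq (build GRCm38.p6), 5′ to 3′ on the strand of the gene, with TATAAA and TAATTA matches in capitals.
Vmn1r22, chr6:57900941-57901240, minus strand: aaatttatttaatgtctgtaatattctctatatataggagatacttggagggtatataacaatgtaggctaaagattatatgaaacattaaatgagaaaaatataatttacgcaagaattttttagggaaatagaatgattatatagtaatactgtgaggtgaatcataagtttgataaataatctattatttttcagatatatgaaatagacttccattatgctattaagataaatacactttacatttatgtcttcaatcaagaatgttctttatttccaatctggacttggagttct
Vmn1r13, chr6:57209608-57209907, plus strand: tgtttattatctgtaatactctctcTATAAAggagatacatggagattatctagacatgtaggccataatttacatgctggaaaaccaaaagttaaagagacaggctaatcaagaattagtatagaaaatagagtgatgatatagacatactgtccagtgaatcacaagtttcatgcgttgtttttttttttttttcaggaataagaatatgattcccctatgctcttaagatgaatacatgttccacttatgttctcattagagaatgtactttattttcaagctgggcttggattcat
Vmn1r14, chr6:57233189-57233488, plus strand: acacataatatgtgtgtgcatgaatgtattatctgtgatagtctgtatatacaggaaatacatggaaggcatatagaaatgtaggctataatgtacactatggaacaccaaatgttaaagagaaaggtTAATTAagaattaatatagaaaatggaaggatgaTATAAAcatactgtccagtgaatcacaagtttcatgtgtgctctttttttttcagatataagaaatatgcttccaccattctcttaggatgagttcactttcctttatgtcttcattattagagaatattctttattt
Vmn1r234, chr17:21228576-21228875, plus strand: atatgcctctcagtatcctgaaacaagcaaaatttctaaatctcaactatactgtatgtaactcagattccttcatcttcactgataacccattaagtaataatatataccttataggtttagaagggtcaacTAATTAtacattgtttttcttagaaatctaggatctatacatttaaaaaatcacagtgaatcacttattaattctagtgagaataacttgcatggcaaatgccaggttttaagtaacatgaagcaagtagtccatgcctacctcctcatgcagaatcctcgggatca

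In pairwise alignments, Vmn1r13 and Vmn1r14 were identical at 70.2% of aligned positions, Vmn1r13 and Vmn1r22 at 69.3% and Vmn1r14 and Vmn1r22 at 65.0%. Each of the 3 shared 50.6% to 53.1% with Vmn1r234. Over pairs of V1R members that have a window and a single older subfamily name, V1rc genes had a median identity of 63.7% (276 pairs), other pairs within a subfamily 53.6% (324 pairs) and pairs from different subfamilies 50.6% (4056 pairs). Whether probes of 1 V1rc gene also read its neighbours was not tested.

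The windows were rich in A and T, as those of ORs were. The median share of A and T was 64.8% over 104 V1R windows and 61.3% over 43 V2R windows, against 65.0% over 948 OR windows and 47.3% over all 32851 windows. The letters TATAAA, searched on both strands, were present in 37.5% of V1R and 30.2% of V2R windows, against 41.0% of OR windows and 13.6% of all windows. TAATTA, the core of a homeodomain site, was present in 11 of 104 V1R and 5 of 43 V2R windows, against 18.6% of OR windows and 5.29% of all windows. CCCNNGGG, the letters of an early B-cell factor site, was present in 0.962% of V1R and 6.98% of V2R windows, against 3.06% of OR windows and 13.7% of all windows. Gene starts such as those of Vmn1r13 and Vmn1r22 fall on the letters ATG, so a window need not cover a promoter. The shares compare windows around annotated gene starts. Matches of different motifs may share letters, and a match is a run of letters and not a bound site.

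Some receptors had single low arrays in both genotypes. Vmn1r170, chosen after its values were seen, read 5.53, 5.29, 5.95 and 3.48 on H2be-GF arrays, against 5.73, 5.13, 3.05, 5.54, 5.53 and 5.59 on WT arrays. The low value fell on 1 array of each genotype, and the change was -0.03 ± 0.57 (SE; adjusted p = 0.993 in limma). Vmn1r176 had the second largest range on WT arrays, from 1.77 to 4.98, and ran from 3.15 to 4.74 on H2be-GF arrays. Vmn2r113, whose 2 probe sets hold identical values, ran from 4.41 to 5.73 on H2be-GF arrays and from 3.74 to 5.75 on WT arrays.

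Vmn1r49, the V1rb receptor known to respond to the urinary ketone heptanone and chosen here for that ligand after its values were seen, was also uneven. It read 4.13, 6.22, 5.70 and 6.34 on H2be-GF arrays, against 4.32, 6.06, 5.84, 4.47, 5.32 and 6.02 on WT arrays. The low arrays were 1 of H2be-GF and 2 of WT, and the change was 0.26 ± 0.47 (SE; adjusted p = 0.920 in limma). Vmn2r26, a V2R known to respond to peptides, read 5.99, 5.59, 5.85 and 5.12 on H2be-GF arrays, against 5.46, 5.55, 5.56, 5.57, 5.71 and 5.55 on WT arrays. Its change was 0.07 ± 0.14 (SE; adjusted p = 0.925 in limma).

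The dimmest probe sets were at or close to the limit. Vmn1r58 read 2.55 on H2be-GF array 1 and 0 on the other H2be-GF arrays, against 0.77, 1.43 and 0.70 on WT arrays 1, 2 and 4 and 0 on the other WT arrays. The lowest V2R signals were higher, with WT means of 4.49 for Vmn2r79 and 4.55 for a probe set of Vmn2r17. No V2R reached 0 on any array.

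The same gene did not always give the same answer from its 2 probe sets. Of 8 genes with 2 probe sets, Vmn2r113 and Vmn2r-ps54 had identical values in both, which adds no independent measurement. Of the other 6, 4 had changes of the same sign in both. Vmn2r17 had changes of 0.19 and -0.34 and WT means of 4.55 and 6.05, with a Pearson correlation of -0.24 over the 10 arrays. Vmn2r111 had changes of -0.10 and 0.19. None of those that entered the test was called.

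Arrays fell into 2 sets by Xist, the RNA of the inactive X chromosome, with 11.81 to 11.92 on 2 H2be-GF arrays and 11.69 to 11.81 on 3 WT arrays in the high set, and no more than 4.61 on 2 H2be-GF arrays and 3.4 on 3 WT arrays in the low set. The median change of V1Rs was 0.022 in the high set and 0.100 in the low set, and that of V2Rs 0.011 and 0.059. The sign was the same in both sets for 68 of 119 V1R probe sets (57.1%) and 33 of 56 V2R probe sets (58.9%). A limma term for the difference between the sets called 0 receptors, and unadjusted p under 0.05 were found in 2 of 102 V1R and 3 of 49 V2R probe sets, against 2.92% of all probe sets tested. Single receptors had opposite changes in the sets, such as Vmn1r13 with -1.12 in the high set and 2.36 in the low set. Vmn1r13 was too dim for the limma term. Its values at or near 0 fell on H2be-GF array 1 in the high set and on WT arrays 4 and 6 in the low set.

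Markers of the other MOE cells were compared beside the receptors, and 1 of them was called. Lhx2, a homeodomain factor that acts on OR promoters, from a list of 7 markers of immature olfactory neurons, had means of 11.46 on H2be-GF arrays and 11.09 on WT arrays (change 0.37 ± 0.06 SE, adjusted p = 0.0425 in limma). The list as a whole did not move with it, with a median change of -0.002 and 3 of 7 changes above 0. Of 12 markers of mature olfactory neurons 0 were called. Their median change was -0.096, only 2 of 12 changes were above 0, and 3 of 12 markers were lower in H2be-GF without overlap of the genotypes, where 2.89% of all probe sets tested did not overlap in either direction. Of 6 markers of respiratory ciliated cells, 0 were called and 0 changes were above 0, with a median of -0.160. An unadjusted p under 0.05 was found for 5 of these 6, 83.3%, against 8.43% of all probe sets tested. Of 7 markers of microvillous and solitary chemosensory cells and 3 of sustentacular cells, 0 were called. The part of these markers in the receptor values was not tested.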

How the data were processed

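RNA of whole MOE was read on microarrays. After an outlier check with arrayQualityMetrics, the authors used IterPLIER and sketch-quantile normalization (Affymetrix Expression Console) to obtain 1 value per probe set. The deposited log2 values start at 0, the lower limit, where each array holds 95 to 157 values. Tool versions and genome build: not given in the sources used here. Only the dimmest probe sets lay near that limit, and 3 of the 175 receptor probe sets were at 0 on 1 or more arrays. Quantile normalization hides a change shared by most genes. The genotypes were compared with limma 3.58.1 (R 4.3.3; lmFit, eBayes, two-sided, without covariates) over probe sets that carry a symbol and average above 5, with Benjamini-Hochberg adjustment over all of them and a threshold of 0.05. The procedure was tested on simulated data with independent noise for each probe set. Such data lack the array effect that the receptors shared. Names came from the platform annotation, and RefSeq tables of GRCm38.p6 gave chromosomes, older names and sequences, which were aligned with Biopython 1.88. V2R families A, B and D were pooled. Plots were drawn with matplotlib 3.10.9.

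The members and lists were chosen with earlier results of these data known. Of each family the text names every called member, those tested whose genotypes do not overlap (up to 4 each way), the 6 with the highest WT mean, the 2 with the largest WT range, the 2 with the lowest WT mean above 0 and the nearest in pattern, and marks the others. Context genes, of which up to 2 per list with the smallest p were to be named, were represented by their probe set of highest mean, and those named for their role or as the ends of a range were chosen after their values were seen. Alternatives covered normalization, an added constant, the variance model, array weights, replicate number as a block, Xist as covariate, signal limits, the member rule and leaving out each array. Fits within the Xist sets and medians over the tested members alone were added after seeing the data. The number of arrays limits the precision.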

Additional observations from a re-analysis of the deposited data

Results flagged for a closer look

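In 7 of 74 groups of arrays tested over the named receptors and the family medians, 1 array lay far from the others of its genotype. Chance gives such gaps in about 1 in 20 groups that were not picked for their values. Some of these receptors were picked for a wide range, a low signal or after their values were seen. The count is therefore not set against that rate. Vmn1r1 read 7.07 on H2be-GF array 4, against 7.48 to 7.57 on the other H2be-GF arrays. Vmn1r224 read 6.70 on H2be-GF array 2, against 7.21 to 7.31 on the others. Vmn1r58 read 2.55 on H2be-GF array 1, and the other H2be-GF arrays were at 0. Vmn1r23 read 1.76 on WT array 1, and the other WT arrays were at 0. Vmn2r70 read 5.67 on WT array 1, against 6.05 to 6.14 on the other WT arrays. Vmn1r22 read 3.16 on WT array 6, against 3.72 to 4.00 on the others, and Vmn1r170 read 3.05 on WT array 3, against 5.13 to 5.73. The causes were not tested.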

How the results depend on the processing

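No V1R or V2R probe set was called under any of the 21 alternatives, where the lowest adjusted p of a receptor ran from 0.185 (no signal limit) to 1. Calls over all probe sets were 20, with 114 under trend and robust variance, 36 above a mean of 7 and 5 with the replicate block, and 0 within either Xist set. WT means above 6 and 7 held 55 and 13 V1R probe sets and 29 and 4 V2R probe sets, against 100 and 49 above 5. Without each array in turn, the median change ran from -0.029 to 0.122 in V1Rs and from -0.043 to 0.088 in V2Rs, the lowest of each being without H2be-GF array 1, the only array whose loss turned their sign. Without 1 WT array, 100 to 101 V1R and 49 to 51 V2R probe sets stayed above 5. Over the 35 named receptor probe sets, 735 values held 0 calls, 64 changed sign and 10 moved by an SD or more. Some of the 735 could not be called, since a probe set below the signal limit of a fit was not tested in it.

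Same-numbered arrays of both genotypes correlated at 0.53, 0.219, -0.423 and 0.261 after the genotype means were taken out. Differently numbered arrays were not compared, so whether the numbers pair the arrays was not tested. With the replicate block the median change was -0.019 in V1Rs and -0.045 in V2Rs, and 0 receptors were called. WT arrays 5 and 6 have no H2be-GF array of the same number, so the change with the block rests on the other arrays. An unadjusted p under 0.05 in limma was found for 13 of 151 receptors with the block, against 5 of 151 without it. The share of all probe sets in the block fit is not given here, so these counts are not read as a result about the receptors. The low signal of these receptors limits what can be detected, and 24 of 175 were too dim to test.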
